A study of Homo sapiens with 6 samples.

Results

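The genes described here stood on opposite sides of untreated fibroblasts with 2 forms of one transcription factor. They were higher than in untreated cells with MyoD fused to the VP64 activation domain (VP64-MyoD) and lower with wild-type MyoD (WT-MyoD). Members were found by a rule on CPM, the counts of a gene scaled by the total of its library's column. Their mean was at least 5 CPM with VP64-MyoD, both VP64-MyoD libraries stood at 1.2 times the higher untreated library or more, and both WT-MyoD libraries stood at or under the lower untreated library divided by 1.2. Of 23526 human genes with a symbol, 87 met the rule, which is 0.81% of the 10741 genes with at least 5 CPM under VP64-MyoD. Among these 10741, 39.3% met the step for VP64-MyoD alone and 8.62% the step for WT-MyoD alone. The mirrored rule, lower with VP64-MyoD and higher with WT-MyoD, held 228 genes. The rule read the measured values of all 6 libraries, so the direction of every member is a choice and not a finding, and no p-value is given for a member's level.

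The series holds RNA-seq of polyadenylated RNA from cultured dermal fibroblasts, all of 1 primary line, with 2 libraries in each of 3 groups. VP64-MyoD cells carried a Tet-ON lentivirus for mouse MyoD with VP64 joined to its N-terminus. WT-MyoD cells carried the same vector for unmodified mouse MyoD. In both, the red fluorescent protein dsRed-Express2 was made from the same transcript, and the cells were selected with puromycin and kept in 3 µg/mL doxycycline until harvest on day 10, per the labels' protocols. Untreated cells were the negative control; whether they were transduced, selected or given doxycycline, and on which day they were harvested, is not given in the labels, so the effects of these steps and of MyoD cannot be told apart in a comparison with them. Replicates are biological duplicates per the design text, and errors therefore describe variation between cultures of a single line.

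Library totals ran from 40997586 to 53804224 counts, with each read pair counted as 2. The mouse Myod1 transgene stood at 119 and 102 CPM in VP64-MyoD cells, 812 and 1018 CPM in WT-MyoD cells, and 4.72 and 0.955 CPM in untreated cells, so the forms differed in transgene RNA as well as in the domain. Of 10 fibroblast markers, all had counts, with a summed level of 33076 to 34889 CPM with VP64-MyoD, 31896 to 34041 CPM with WT-MyoD, and 40249 to 41899 CPM in untreated cells. COL1A1 and COL1A2 make up most of this sum, and the markers differed in direction. Against untreated cells, COL1A1, COL1A2, PDGFRB and FAP were lower with both forms, and VIM, LUM and THY1 higher with both. COL3A1, PDGFRA and DCN were lower with VP64-MyoD and higher with WT-MyoD. The summed level of 8 skeletal muscle markers was 5852 to 6491 CPM with VP64-MyoD, 1577 to 1613 CPM with WT-MyoD and 24.3 to 28.3 CPM in untreated cells. The highest sum in any library was 8.59 CPM for keratinocyte markers and 2.08 CPM for endothelial markers, and melanocyte and adipocyte markers lay lower still. In bulk RNA, fewer cells of a type and less RNA per cell cannot be told apart.

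MyoD is a basic helix-loop-helix factor that binds E-box sites with E-protein partners and turns on the muscle programme in many cell types, fibroblasts included. VP64 is a tandem repeat of a short activation stretch of the herpes simplex protein VP16, which recruits coactivators. Dermal fibroblasts build collagen matrix, and under transforming growth factor beta (TGF-beta) or tension they take on actin stress fibres, alpha smooth muscle actin and matrix genes of the myofibroblast. Several of these genes stand among the members. For every member except KCNQ1 the rule fixes that the 3 pairs of libraries do not overlap, with VP64-MyoD highest, untreated cells between and WT-MyoD lowest. KCNQ1 had 0 CPM in both WT-MyoD libraries and 0.0372 and 0 CPM in the untreated libraries, so these pairs meet at 0. The size of each step is what the values below describe.

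An arm below is the log2 fold change of one MyoD form over untreated cells. The log2 fold changes below are from edgeR with TMM scaling, with their standard error (SE). The median member stood at a log2 fold change of 0.51 for VP64-MyoD over untreated cells, -1.01 for WT-MyoD over untreated cells and 1.71 for VP64-MyoD over WT-MyoD, against 0.03, 0 and 0.02 for the median of all 15281 genes tested. Which arm was the larger depends on scaling: with TMM it was the VP64-MyoD arm in 19 members and the WT-MyoD arm in 68, and by ratios of mean CPM on column totals the VP64-MyoD arm in 38 and the WT-MyoD arm in 49. With both arms called, 10 members differed by more than 2-fold in both: CD163, INHBE, GLI1, IL11, IER3, SHROOM2, OSCAR, TSPAN18, PMEPA1 and SRRM3. By ratios of mean CPM, SHROOM2 leaves and 9 remain. Untreated levels spanned from 0.0186 CPM for KCNQ1 to 3597 CPM for POSTN, with 33 members under 10 CPM and 18 at 100 CPM or more.

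**Figure D1:**
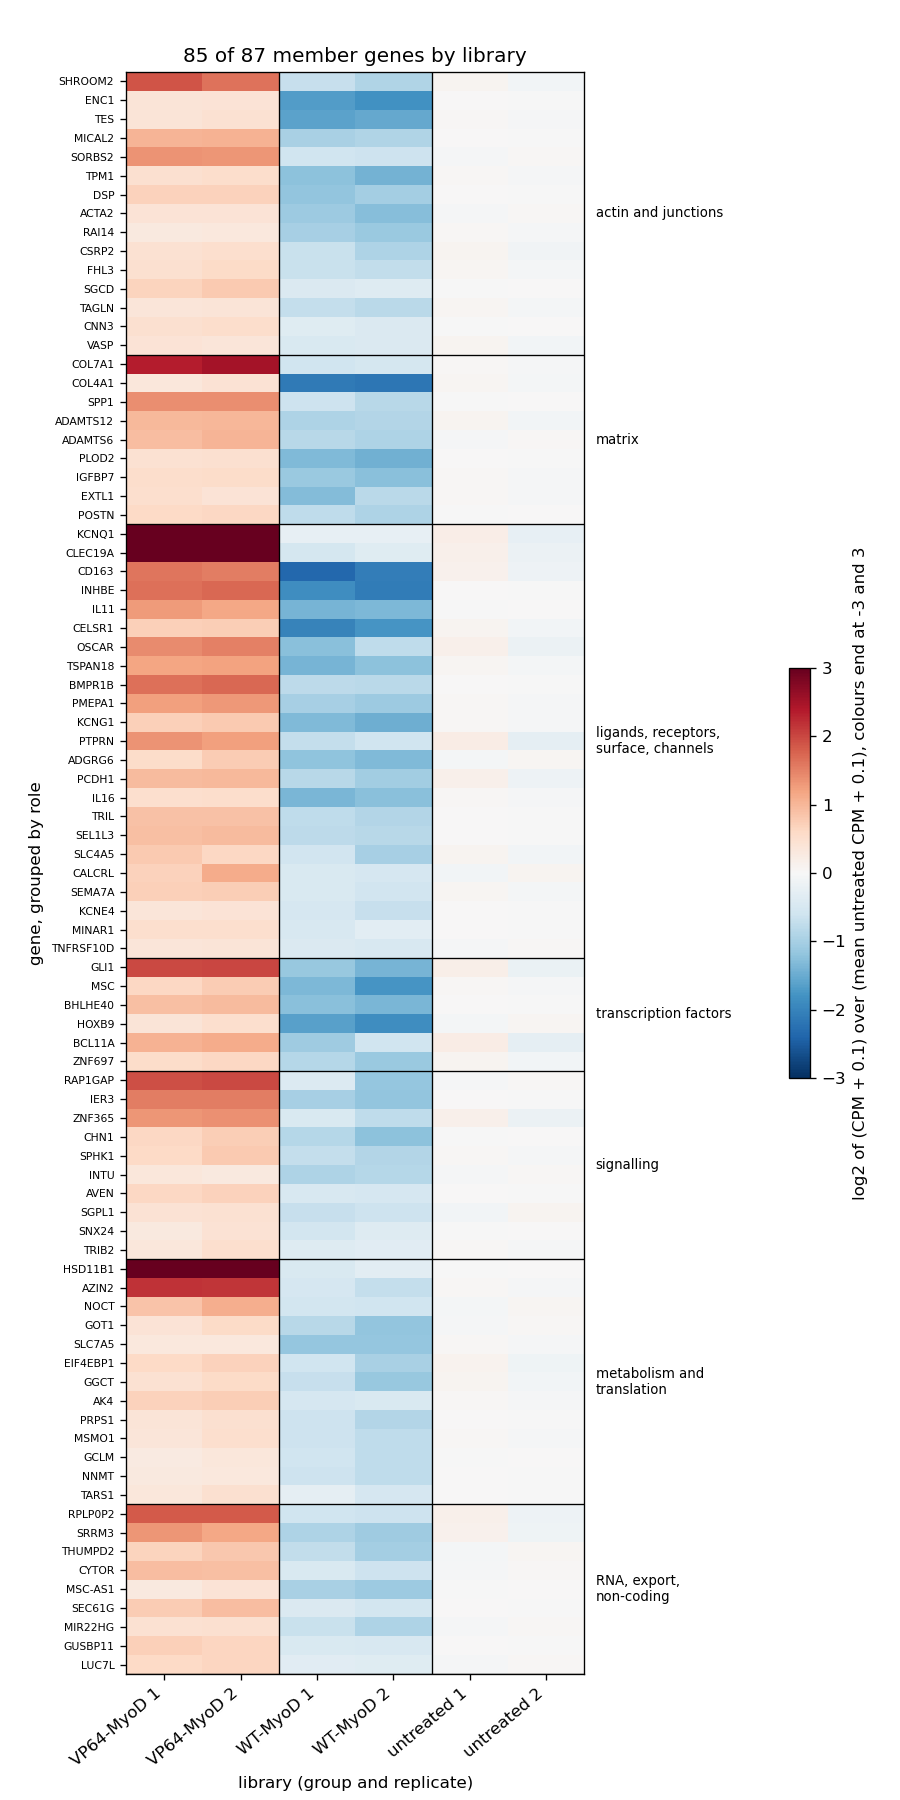
Log2 ratio of CPM + 0.1 to the mean untreated CPM + 0.1 for 85 of the 87 members (rows, grouped by role) in the 6 libraries (columns: VP64-MyoD, WT-MyoD, untreated, 2 replicates each). Red is above and blue below the untreated mean, with colours ending at -3 and 3; the VP64-MyoD columns are red and the WT-MyoD columns blue in every row, as the rule requires, and the depth of colour differs between rows.

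The size of the small changes depends on scaling. By column totals, the median gene tested lay 0.20 above 0 on the log2 scale for VP64-MyoD over untreated cells and 0.17 above 0 for WT-MyoD over untreated cells, and TMM scaling removes most of this. With TMM-scaled CPM in the rule, 92 genes met it, of which 59 are members. Of the 28 that left, which include ACTA2, COL4A1, TAGLN, TES, SLC7A5 and TARS1, 27 had log2 fold changes of VP64-MyoD over untreated cells of 0.11 to 0.34, and CLEC19A had 4.83. All 87 kept both directions under TMM. The edgeR test called 80 of the 87 higher with VP64-MyoD than untreated and 84 lower with WT-MyoD than untreated, beside 33.3% and 22.6% of all genes tested. The VP64-MyoD arms not called were those of EXTL1, GCLM, INTU, NNMT, RAI14, SLC7A5 and SNX24. The WT-MyoD arms not called were those of CLEC19A, HSD11B1 and KCNQ1. Between the MyoD forms, all 87 were called higher with VP64, beside 28.7% of all genes tested. Calls in both directions at once, up with VP64-MyoD and down with WT-MyoD, were made for 309 genes or 2.02%. The rule used these contrasts, so nothing is read from these counts.

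**Figure D2:**
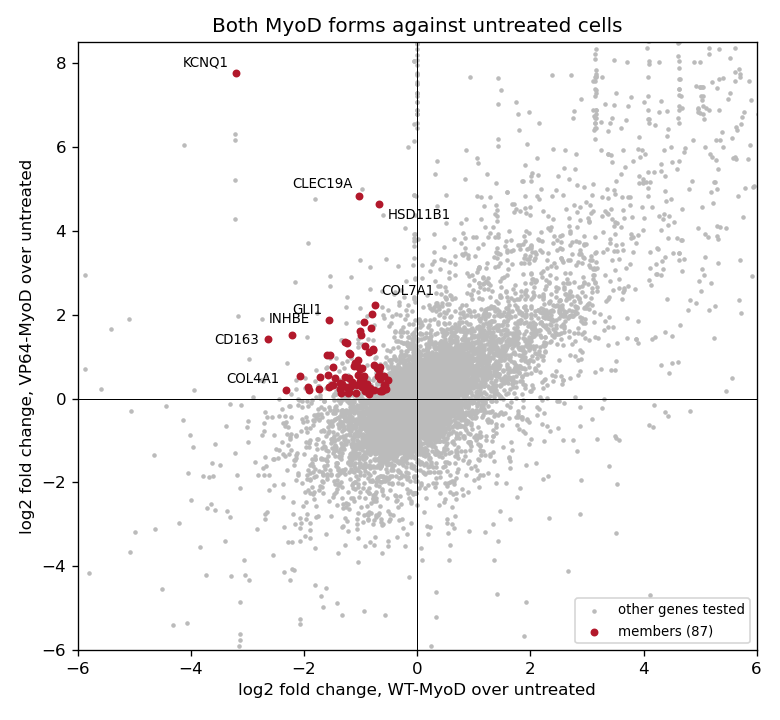
Log2 fold change over untreated cells with WT-MyoD (x axis) and with VP64-MyoD (y axis), from edgeR, for the 87 members (red) and the other genes tested (grey). Both axes share the untreated libraries; 298 other genes lie outside the axes, and the members fill the upper left quadrant from NNMT, at 0.11 on the y axis, to KCNQ1, at 7.76.

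Genes of the actin cytoskeleton, contraction and cell junctions made up 16 members. TPM1, a tropomyosin that lies along actin filaments, stood at 1076 and 1116 CPM in VP64-MyoD cells, 329.6 and 288 CPM in WT-MyoD cells, and 789 and 756 CPM in untreated cells. ACTA2, the alpha smooth muscle actin of myofibroblasts, stood at 680.2 and 682 CPM in the VP64-MyoD libraries, against 239 and 209 CPM in the WT-MyoD and 498 and 523 CPM in the untreated libraries. TAGLN, the actin-bundling protein transgelin of smooth muscle, was measured at 544 and 556 CPM in VP64-MyoD cells, 259.5 and 243 CPM in WT-MyoD cells, and 438 and 409.9 CPM in untreated cells. Each of these 3 lost more with WT-MyoD than it gained with VP64-MyoD. Their log2 fold changes were 0.32, 0.23 and 0.19 for VP64-MyoD over untreated cells and -1.5, -1.36 and -0.93 for WT-MyoD over untreated cells, all with an SE of 0.06 to 0.07. ACTA2 reads can be shared with other near-identical actin genes, so its level is uncertain to that extent. The actin gene ACTC1, a skeletal muscle marker, had 1756 and 1628 CPM in VP64-MyoD cells and 1132 and 1117 CPM in WT-MyoD cells. In untreated cells ACTC1 had 13.7 and 9.8 CPM. The part of shared reads in the ACTA2 level was not tested. The 6 smooth muscle markers, none of them a member, summed to 663 and 622 CPM in VP64-MyoD cells, 714 and 729 CPM in WT-MyoD cells and 527 and 544 CPM in untreated cells. Most of that sum is SYNPO2, and the markers differed in direction. CNN1 and LMOD1 were lower with both forms than in untreated cells. SMTN was higher with both, at log2 values of 1.78 (SE 0.07) with VP64-MyoD and 0.74 (SE 0.07) with WT-MyoD, both called. SYNPO2 and MYH11 also had higher CPM with both forms, but of these only SYNPO2 with WT-MyoD was called. ACTG2 had at most 0.356 CPM in any library. The part of smooth muscle cells in these results was not tested.

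Proteins of adhesion sites and of the actin cortex behaved likewise. TES, a LIM protein of focal adhesions, had 62 and 65.2 CPM in VP64-MyoD cells, 15.6 and 16.3 CPM in WT-MyoD cells, and 48.3 and 46.5 CPM in untreated cells. RAI14, an actin-associated ankyrin repeat protein, had 427 and 435 CPM in the VP64-MyoD libraries, against 174 and 161 CPM in the WT-MyoD and 355 and 339 CPM in the untreated libraries. Its VP64-MyoD arm, at 0.13 (SE 0.06), was not called. The LIM protein gene CSRP2 stood at 31.3 and 32.1 CPM in VP64-MyoD cells, 14.2 and 11.8 CPM in WT-MyoD cells, and 24.1 and 21.2 CPM in untreated cells. In these genes the step down with WT-MyoD was the larger one. CNN3, the acidic calponin, was present at 327 and 341 CPM in VP64-MyoD cells, 184 and 175 CPM in WT-MyoD cells, and 233 and 238 CPM in untreated cells. In TES the VP64-MyoD arm was 0.24 (SE 0.07) and the WT-MyoD arm -1.74 (SE 0.08). ENC1, an actin-binding kelch protein, had a similar imbalance, at 0.21 (SE 0.06) with VP64-MyoD and -1.91 (SE 0.06) with WT-MyoD. SHROOM2, SORBS2 and MICAL2, which bind or oxidise actin, were the 3 of these 16 with the highest gain with VP64-MyoD, at 1.61, 1.15 and 0.85. SHROOM2 was a low gene, with 9.69 and 8.18 CPM in VP64-MyoD cells, 1.55 and 1.32 CPM in WT-MyoD cells, and 2.71 and 2.41 CPM in untreated cells. FHL3, a LIM protein, and VASP, which promotes actin filament growth, had VP64-MyoD arms of 0.35 and 0.2 and WT-MyoD arms of -0.88 and -0.62.

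DSP, the desmoplakin that ties intermediate filaments to desmosomes, was the second most abundant member with VP64-MyoD, at 1258 and 1262 CPM in VP64-MyoD cells, 341 and 383 CPM in WT-MyoD cells, and 781 and 777 CPM in untreated cells. The log2 fold change over untreated cells was 0.51 (SE 0.08) with VP64-MyoD and -1.27 (SE 0.08) with WT-MyoD. SGCD, a sarcoglycan and so a membrane partner of dystrophin, stood at 636 and 679.6 CPM in the VP64-MyoD libraries, against 294 and 304 CPM in the WT-MyoD and 395 and 399.9 CPM in the untreated libraries. The sarcoglycans SGCA and SGCB, looked up after the members were known, were not members, since WT-MyoD raised both: SGCA stood at 53 and 50.1 CPM in VP64-MyoD cells, 89.1 and 82 CPM in WT-MyoD cells, and 0.335 and 0.249 CPM in untreated cells. SGCB had 224 and 229.8 CPM in VP64-MyoD cells, 286 and 263 CPM in WT-MyoD cells, and 125 and 127 CPM in untreated cells. On the log2 scale over untreated cells, SGCA stood at 8.0 (SE 0.13, edgeR adjusted p = 4.9e-16) with WT-MyoD and SGCB at 0.95 (SE 0.06, edgeR adjusted p = 1.8e-09).

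Extracellular matrix genes and their enzymes formed a group of 10, led by the most abundant member. POSTN, the matricellular protein periostin, stood at 5473 and 5544 CPM in VP64-MyoD cells, 2121 and 1882 CPM in WT-MyoD cells, and 3555 and 3639 CPM in untreated cells, or 0.43 (SE 0.07) with VP64-MyoD and -1.02 (SE 0.07) with WT-MyoD on the log2 scale over untreated cells. COL4A1, a chain of basement membrane collagen IV, showed the deepest drop of the group with WT-MyoD, with 1021 and 1095 CPM in VP64-MyoD cells, 186 and 178 CPM in WT-MyoD cells, and 839 and 772 CPM in untreated cells. Its log2 fold change was 0.21 (SE 0.07) with VP64-MyoD and -2.32 (SE 0.07) with WT-MyoD. COL4A2, which encodes the partner chain and was looked up after the members were known, stood at 893 and 941 CPM in VP64-MyoD cells, 264 and 272 CPM in WT-MyoD cells, and 936 and 882 CPM in untreated cells. With VP64-MyoD the CPM of COL4A2 overlapped those of untreated cells, so it was no member, and with TMM its log2 value was -0.17 (SE 0.07, edgeR adjusted p = 0.039). With WT-MyoD COL4A2 fell, to a log2 value of -1.93 (SE 0.07, edgeR adjusted p = 2.4e-12).

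COL7A1, the collagen of anchoring fibrils under the epidermis, had the reverse balance. Its levels were 98.6 and 109 CPM in VP64-MyoD cells, 12.7 and 13.3 CPM in WT-MyoD cells, and 19.8 and 18.8 CPM in untreated cells, which gave 2.24 (SE 0.08) with VP64-MyoD and -0.75 (SE 0.08) with WT-MyoD. PLOD2, a lysyl hydroxylase that prepares collagen for cross-linking, had 476 and 488 CPM in VP64-MyoD cells, 139 and 129 CPM in WT-MyoD cells, and 351 and 345 CPM in untreated cells. Its arms were 0.28 (SE 0.06) with VP64-MyoD and -1.55 (SE 0.06) with WT-MyoD. The metalloproteinases ADAMTS6 and ADAMTS12 resembled each other, at 0.79 and 0.8 with VP64-MyoD and -1.06 and -1.08 with WT-MyoD. SPP1, the matricellular protein osteopontin, was scarce, at 7.73 and 7.74 CPM in VP64-MyoD cells, 1.82 and 1.56 CPM in WT-MyoD cells, and 2.86 and 2.87 CPM in untreated cells. The group also held IGFBP7, an insulin-like growth factor binding protein of the matrix, with arms of 0.36 and -1.36. Also in the group was EXTL1, a heparan sulphate glycosyltransferase, at 0.28 (SE 0.17) with VP64-MyoD, which was not called, and -1.26 with WT-MyoD.

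**Figure D3:**
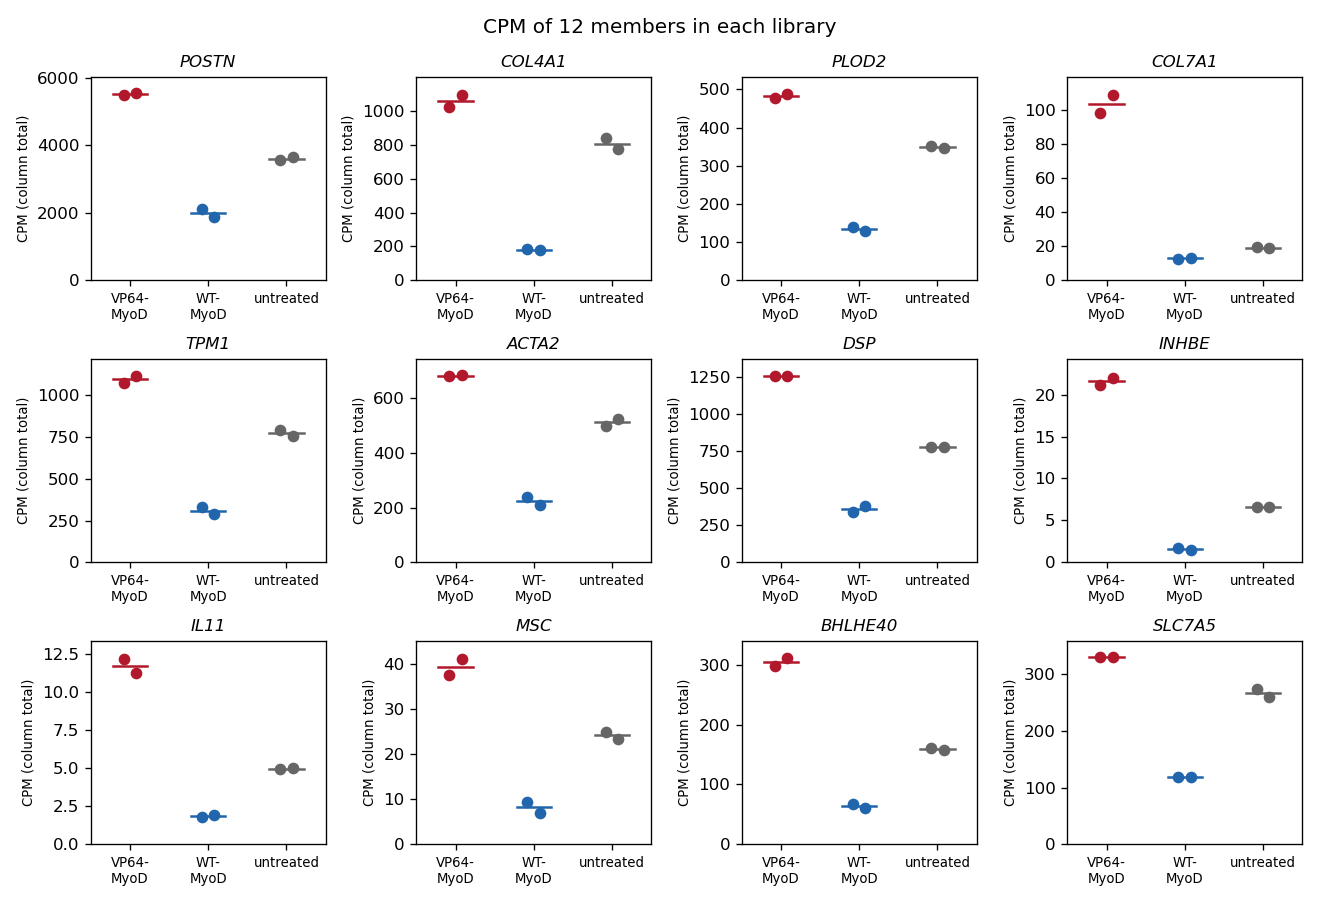
CPM by column total (y axis, from 0) of 12 members in each library, with VP64-MyoD at the left, WT-MyoD in the middle and untreated at the right. Points are the 2 libraries of a group and the bar is their mean; the WT-MyoD pair lies lowest in each panel, and the distance between the VP64-MyoD and untreated pairs is widest in proportion for COL7A1 and INHBE.

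The group of 23 ligands, receptors, surface and channel proteins was the most numerous, and most of its members were scarce, with a median untreated level of 6.49 CPM. INHBE, a beta subunit of the activin and inhibin family, stood at 21.2 and 22 CPM in VP64-MyoD cells, 1.74 and 1.46 CPM in WT-MyoD cells, and 6.62 and 6.61 CPM in untreated cells. This is 1.52 (SE 0.1) with VP64-MyoD and -2.21 (SE 0.13) with WT-MyoD over untreated cells. IL11, an interleukin-6 family cytokine made by fibroblasts under TGF-beta, had 12.2 and 11.2 CPM in VP64-MyoD cells, 1.82 and 1.9 CPM in WT-MyoD cells, and 4.94 and 4.99 CPM in untreated cells. PMEPA1, a feedback inhibitor of TGF-beta signalling, stood at 106 and 109.8 CPM in the VP64-MyoD libraries, against 22.6 and 21.1 CPM in the WT-MyoD and 46.2 and 43.5 CPM in the untreated libraries. BMPR1B, a type I receptor for bone morphogenetic proteins, was at 19.2 and 19.97 CPM in VP64-MyoD cells, 3.44 and 3.41 CPM in WT-MyoD cells, and 6.1 and 5.94 CPM in untreated cells. In BMPR1B the VP64-MyoD arm was the larger, at 1.52 against -0.99 with WT-MyoD, and in INHBE and IL11 the WT-MyoD arm was. For PMEPA1 the order turns with scaling: its arms were 1.08 and -1.21 with TMM, but by mean CPM it was 2.41-fold higher with VP64-MyoD and 2.05-fold lower with WT-MyoD.

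CELSR1, a cadherin of planar cell polarity, had one of the deepest drops with WT-MyoD, with 64 and 64.6 CPM in VP64-MyoD cells, 9.65 and 11.4 CPM in WT-MyoD cells, and 41.1 and 36.7 CPM in untreated cells, or -2.07 (SE 0.1) on the log2 scale. TSPAN18, a tetraspanin, stood at 9.51 and 9.6 CPM in the VP64-MyoD libraries, against 1.51 and 1.71 CPM in the WT-MyoD and 4.27 and 3.95 CPM in the untreated libraries. OSCAR, a collagen-binding receptor first described on osteoclasts, had 5.87 and 6.24 CPM in VP64-MyoD cells, 0.832 and 1.22 CPM in WT-MyoD cells, and 2.38 and 1.87 CPM in untreated cells. CD163, the haemoglobin scavenger receptor of macrophages, had 7.38 and 7.05 CPM in VP64-MyoD cells, 0.378 and 0.488 CPM in WT-MyoD cells, and 2.6 and 2.12 CPM in untreated cells. Its WT-MyoD level rests on 20 read pairs over both libraries. Of the 4 blood markers, CD3E had no count; PTPRC, which marks all white blood cells, had 1.56 and 1.78 CPM in VP64-MyoD cells, 0.795 and 1.12 CPM in WT-MyoD cells, and 1.23 and 1.08 CPM in untreated cells; and CD68, a lysosomal protein of macrophages and other cells, had 44.4 and 47.5 CPM in VP64-MyoD cells, 187 and 178 CPM in WT-MyoD cells, and 61.2 and 61.8 CPM in untreated cells. The summed level of the 4 blood markers was 47.0 and 49.9 CPM in VP64-MyoD cells, 189 and 181 CPM in WT-MyoD cells and 63.2 and 63.9 CPM in untreated cells. CD68 makes up nearly all of this sum and was highest with WT-MyoD, whereas PTPRC, like CD163, had its highest CPM with VP64-MyoD. LYZ, the remaining marker, had 1.02 and 0.648 CPM in VP64-MyoD cells and 0.984 and 1.32 CPM in WT-MyoD cells. In untreated cells LYZ had 0.781 and 0.997 CPM, so its groups overlapped. For VP64-MyoD over untreated cells PTPRC was not called, at a log2 value of 0.35 (SE 0.27, edgeR adjusted p = 0.28). For VP64-MyoD over WT-MyoD its value was 0.80 (SE 0.28, edgeR adjusted p = 0.025). The part of blood cells in the CD163 level was not tested.

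KCNQ1, KCNG1 and KCNE4, which encode parts of voltage-gated potassium channels, were all members, but at very different depth. KCNE4, an accessory subunit that modulates KCNQ1 channels, stood at 57.2 and 59.1 CPM in VP64-MyoD cells, 31.4 and 27.3 CPM in WT-MyoD cells, and 44.9 and 43.6 CPM in untreated cells, and KCNG1, a modifying alpha subunit, at 21.8 and 22.6 CPM in VP64-MyoD cells, 5.18 and 4.73 CPM in WT-MyoD cells, and 13.6 and 12.8 CPM in untreated cells. KCNQ1, the pore subunit, stood at 5.69 and 5.14 CPM in VP64-MyoD cells, 0 and 0 CPM in WT-MyoD cells, and 0.0372 and 0 CPM in untreated cells. It had 255 read pairs over the VP64-MyoD libraries, none over the WT-MyoD libraries and 1 over the untreated libraries. Setting the empty WT-MyoD group to the 3 read pairs that a count of 0 allows, KCNQ1 was at least 84.5-fold higher with VP64-MyoD; this covers counting error only. A difference between WT-MyoD and untreated cells was not detectable for KCNQ1 at this depth. Few reads also lie behind CLEC19A, a C-type lectin gene, with 244, 4 and 8 read pairs over the VP64-MyoD, WT-MyoD and untreated libraries. Its levels were 4.8 and 5.51 CPM in VP64-MyoD cells, 0.0757 and 0.0976 CPM in WT-MyoD cells, and 0.186 and 0.125 CPM in untreated cells, and its WT-MyoD arm was not called. KCNQ1 overlaps the antisense transcript KCNQ1OT1, which stood at 195 and 192 CPM in VP64-MyoD cells, 132 and 201 CPM in WT-MyoD cells, and 133 and 145 CPM in untreated cells.

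Further surface genes had arms between these extremes. The guidance protein SEMA7A stood at 304 and 314 CPM in VP64-MyoD cells, 136 and 125 CPM in WT-MyoD cells, and 194 and 179 CPM in untreated cells. The adhesion receptor ADGRG6 stood at 0.48 with VP64-MyoD and -1.45 with WT-MyoD on the log2 scale, and the cytokine gene IL16 at 0.33 with VP64-MyoD and -1.5 with WT-MyoD. The protocadherin PCDH1, the Toll-like receptor accessory protein TRIL, the secretory granule protein PTPRN, the bicarbonate transporter SLC4A5, the peptide receptor CALCRL, the decoy death receptor TNFRSF10D and the genes SEL1L3 and MINAR1 made up the rest, with log2 fold changes of 0.19 to 1.11 for VP64-MyoD and -1.12 to -0.59 for WT-MyoD over untreated cells.

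Of the 6 transcription factors, MSC, BHLHE40 and BCL11A are known as repressors. MSC (musculin), a helix-loop-helix repressor of myogenic factors, stood at 37.6 and 41.3 CPM in VP64-MyoD cells, 9.38 and 7.07 CPM in WT-MyoD cells, and 24.9 and 23.5 CPM in untreated cells. The log2 fold change was 0.52 (SE 0.09) with VP64-MyoD and -1.72 (SE 0.1) with WT-MyoD. Its neighbour MSC-AS1, a long noncoding gene whose span overlaps that of MSC, followed it at 69.3 and 75.2 CPM in VP64-MyoD cells, 28.9 and 26.7 CPM in WT-MyoD cells, and 57 and 57 CPM in untreated cells. Since the libraries do not mark the strand, reads of the overlap cannot be told apart. BHLHE40, a helix-loop-helix repressor of the circadian and stress responses, was the most abundant factor, at 298 and 310.5 CPM in the VP64-MyoD libraries, against 66.7 and 61.2 CPM in the WT-MyoD and 161 and 158 CPM in the untreated libraries, or 0.75 (SE 0.06) and -1.49 (SE 0.06) over untreated cells. BCL11A, a zinc finger repressor best known from fetal globin silencing, was a low gene at 5.42 and 5.63 CPM in VP64-MyoD cells, 1.17 and 1.66 CPM in WT-MyoD cells, and 3.01 and 2.12 CPM in untreated cells.

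GLI1, an effector and target of Hedgehog signalling, had 5.96 and 6.07 CPM in VP64-MyoD cells, 0.605 and 0.488 CPM in WT-MyoD cells, and 1.64 and 1.25 CPM in untreated cells, or 1.87 (SE 0.19) with VP64-MyoD and -1.56 (SE 0.26) with WT-MyoD. PTCH1, GLI2 and GLI3 were looked up after the members were known, and all fell with VP64-MyoD. PTCH1, the Hedgehog receptor and itself a pathway target, stood at a log2 value of -1.13 (SE 0.1, edgeR adjusted p = 5.6e-08) over untreated cells. For GLI2 and GLI3, the other factors of the family, the values were -0.31 (SE 0.08, edgeR adjusted p = 0.0044) and -0.87 (SE 0.12, edgeR adjusted p = 8.1e-06). With WT-MyoD, PTCH1 and GLI2 fell as well, at -0.99 (SE 0.1, edgeR adjusted p = 3.6e-07) and -0.8 (SE 0.09, edgeR adjusted p = 1.0e-06), and GLI3 rose, at 0.46 (SE 0.11, edgeR adjusted p = 0.0032). GLI1 lies next to INHBE, another member, on chromosome 12. HOXB9, a homeobox factor of positional identity, stood at 16.8 and 18.3 CPM in VP64-MyoD cells, 4.05 and 3.46 CPM in WT-MyoD cells, and 12.3 and 13.3 CPM in untreated cells, with -1.94 (SE 0.11) with WT-MyoD. ZNF697, a zinc finger gene, had arms of 0.41 and -1.16.

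Signalling genes numbered 10. IER3, an immediate early gene of cell survival, had 66.4 and 66.7 CPM in VP64-MyoD cells, 11.4 and 9.95 CPM in WT-MyoD cells, and 23 and 22.7 CPM in untreated cells, with arms of 1.36 (SE 0.07) and -1.27 (SE 0.08). RAP1GAP, which switches off the small GTPase Rap1, stood at 6.13 and 6.32 CPM in the VP64-MyoD libraries, against 1.14 and 0.634 CPM in the WT-MyoD and 1.49 and 1.58 CPM in the untreated libraries; its WT-MyoD libraries lay further apart, in proportion, than those of any other member with counts in both. SPHK1, which makes sphingosine-1-phosphate, and SGPL1, the lyase that degrades it, were both members. SPHK1 stood at 87.1 and 98.4 CPM in VP64-MyoD cells, 34.8 and 30.9 CPM in WT-MyoD cells, and 58.8 and 55.7 CPM in untreated cells, and SGPL1 at 92.5 and 94.6 CPM in VP64-MyoD cells, 42.8 and 44.4 CPM in WT-MyoD cells, and 65.2 and 72.2 CPM in untreated cells. CHN1, a GTPase-activating protein for Rac, had 0.5 with VP64-MyoD and -1.21 with WT-MyoD. TRIB2, a pseudokinase, and AVEN, an inhibitor of apoptosis, had smaller arms, with 0.24 and 0.48 for VP64-MyoD and -0.55 and -0.66 for WT-MyoD. The sorting nexin SNX24, the ciliary planar polarity gene INTU and ZNF365 completed the group. Their VP64-MyoD arms were 0.19, 0.14 and 1.18 and their WT-MyoD arms -0.66, -1.09 and -0.78. The VP64-MyoD arms of SNX24 (SE 0.11) and INTU (SE 0.13) were not called.

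Metabolic and translation genes numbered 13. HSD11B1, which regenerates active cortisol inside cells, stood at 13.5 and 12.1 CPM in VP64-MyoD cells, 0.303 and 0.341 CPM in WT-MyoD cells, and 0.446 and 0.457 CPM in untreated cells, on 603, 15 and 23 read pairs over the VP64-MyoD, WT-MyoD and untreated libraries. Its gain with VP64-MyoD was 4.64 (SE 0.19), and its WT-MyoD arm, at -0.67 (SE 0.33), was not called. AZIN2, an antizyme inhibitor that favours polyamine synthesis, had 12.4 and 12.1 CPM in VP64-MyoD cells, 1.85 and 1.61 CPM in WT-MyoD cells, and 2.75 and 2.62 CPM in untreated cells. SLC7A5, the large neutral amino acid transporter, stood at 330.3 and 329.9 CPM in VP64-MyoD cells, 119 and 119 CPM in WT-MyoD cells, and 274 and 259.9 CPM in untreated cells, with arms of 0.12 (SE 0.06) for VP64-MyoD, which was not called, and -1.34 (SE 0.06) for WT-MyoD. TARS1, the threonyl-tRNA synthetase, had 255 and 282 CPM in the VP64-MyoD libraries, against 165 and 141 CPM in the WT-MyoD and 201 and 199 CPM in the untreated libraries.

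GOT1, the cytosolic aspartate aminotransferase, stood at 54.8 and 60.7 CPM in VP64-MyoD cells, 23 and 17.9 CPM in WT-MyoD cells, and 40.1 and 42.1 CPM in untreated cells. EIF4EBP1, which restrains cap-dependent translation, had 53.7 and 57.7 CPM in VP64-MyoD cells, 23.4 and 17.9 CPM in WT-MyoD cells, and 38.4 and 32.6 CPM in untreated cells. GCLM, a subunit of the enzyme that limits glutathione synthesis, and GGCT, which acts in glutathione turnover, had VP64-MyoD arms of 0.13 and 0.34 and WT-MyoD arms of -0.85 and -1.07. The VP64-MyoD arm of GCLM (SE 0.06) was not called. MSMO1, a sterol synthesis enzyme, had 91 and 99.6 CPM in VP64-MyoD cells, 45.6 and 41.3 CPM in WT-MyoD cells, and 72.3 and 68.7 CPM in untreated cells. The nucleotide enzymes PRPS1 and AK4, the nicotinamide methyltransferase NNMT and the deadenylase family gene NOCT had VP64-MyoD arms from 0.11 to 0.81 and WT-MyoD arms from -0.92 to -0.64. The VP64-MyoD arm of NNMT, the 0.11 (SE 0.06), was not called.

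The last 9 members were genes of RNA processing and protein export and genes without a protein product. SRRM3, a splicing factor best known from neurons, had 11.6 and 10.3 CPM in VP64-MyoD cells, 2.38 and 2.15 CPM in WT-MyoD cells, and 5.02 and 4.15 CPM in untreated cells. CYTOR, MIR22HG and MSC-AS1 are long noncoding RNAs, and RPLP0P2 and GUSBP11 are transcribed pseudogenes. MIR22HG, the host gene of miR-22, stood at 102 and 104 CPM in VP64-MyoD cells, 46.5 and 39 CPM in WT-MyoD cells, and 72.2 and 76.3 CPM in untreated cells. RPLP0P2, GUSBP11 and CYTOR have near-identical copies elsewhere, with which their reads can be shared, so their VP64-MyoD arms of 1.69, 0.51 and 0.74 and WT-MyoD arms of -0.81, -0.65 and -0.71 are uncertain. LUC7L, a splicing factor, THUMPD2, an RNA-modifying enzyme, and SEC61G, a subunit of the protein-conducting channel, had VP64-MyoD arms of 0.44, 0.57 and 0.68 and WT-MyoD arms of -0.52, -1.05 and -0.68. In all, 15 members overlap the span of another gene with at least 1 CPM in some library, and for these the reads of the overlap cannot be told apart by strand. Several of the overlapping genes also had higher CPM in both VP64-MyoD than in both WT-MyoD libraries: MTHFD2 beside SLC4A5, TP53I11 beside TSPAN18, RGL4 beside GUSBP11, TRIM62 beside AZIN2, CNN3-DT beside CNN3, POLR2B beside IGFBP7, and MSC and MSC-AS1 beside each other, and TRPA1, at about 1 CPM or less, beside MSC-AS1.

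At the edges of the rule the values were close to continuous. Nearest inside the 1.2-fold step for VP64-MyoD were GCLM, INTU and RAI14, whose lower VP64-MyoD library was 1.201, 1.203 and 1.205 times the higher untreated library. Nearest outside were STARD4-AS1, MED8 and ARNT2, at 1.191, 1.190 and 1.180 times. For WT-MyoD, TARS1, ZNF365 and LUC7L were inside, with the lower untreated library at 1.21, 1.22 and 1.23 times the higher WT-MyoD library, and POLD4, SPATS2 and SUPT3H outside, at 1.198, 1.198 and 1.193 times. Nearest the level of 5 CPM were CLEC19A, EXTL1 and KCNQ1 inside, at 5.15, 5.39 and 5.42 CPM, and TLL2, ANO1 and ARSI outside, at 4.67, 4.31 and 4.14 CPM. The step for WT-MyoD alone kept out 4130 genes that met the others, and the step for VP64-MyoD alone 839.

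In the authors' deposited table of transcripts that passed their threshold in both comparisons, 39 of 3135 transcripts were higher with VP64-MyoD and lower with WT-MyoD than in untreated cells. Of these 39 transcripts in the authors' deposited table, 35 belong to 23 of the 87 members. For COL7A1 the authors' deposited table gives log2 fold changes over untreated cells of 2.24 with VP64-MyoD and -0.74 with WT-MyoD, and for INHBE the authors' deposited table gives 1.52 and -2.22.

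The shares of a gene's transcripts are not used by the rule and could be tested. RefSeq transcript rows of the same gene were compared with edgeR's test of differential usage, over 6039 genes with more than 1 row past the filter. In the VP64-MyoD over untreated comparison, 0.878% of the genes were called at an adjusted p under 0.05, and 1 of 45 members tested, TPM1, was among them. In the VP64-MyoD over WT-MyoD comparison, 0.596% were called, and again TPM1 was the 1 member. In the WT-MyoD over untreated comparison, 0.265% were called and 0 of 45 members, with 4 members at an unadjusted p under 0.05; limma-voom called 0 as well.

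TPM1 makes muscle and non-muscle tropomyosins through alternative exons, and its 7 transcript rows shifted by small amounts. The row NM_001018005 took 10.5% and 10.4% of the gene's counts with VP64-MyoD, 9.17% and 9.12% with WT-MyoD, and 8.31% and 8.86% in untreated cells. NM_001018020 took 16.7% and 17.1% with VP64-MyoD, 17.5% and 17.4% with WT-MyoD, and 18.3% and 18.4% in untreated cells. NM_001018008 had another order, with 4.48% and 4.66% with VP64-MyoD, 5.42% and 5.21% with WT-MyoD, and 4.15% and 4.22% in untreated cells. The 3 groups did not overlap in these rows and in NM_001018006, which is 4 of the 7. The edgeR adjusted p of the gene was 0.016 for VP64-MyoD over untreated cells and 0.036 for VP64-MyoD over WT-MyoD. With the replicate number as a block these were 0.059 and 0.11. Leaving out either untreated or either VP64-MyoD library ended both calls (adjusted p from 0.23 to 1.00), and leaving out WT-MyoD replicate 1 ended the call over WT-MyoD (adjusted p = 0.097). How the authors assigned reads shared by several transcripts is not given in the sources used here.

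**Figure D4:**
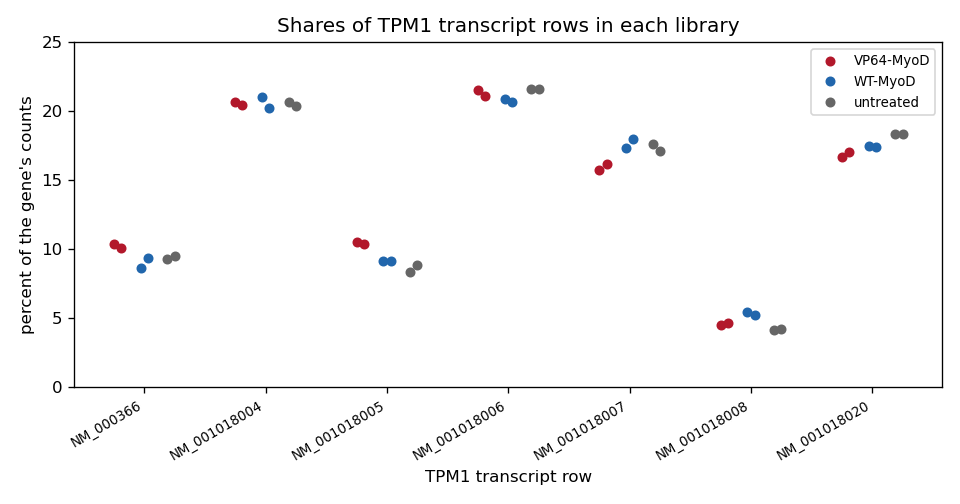
Percent of TPM1 counts (y axis) on each of its 7 RefSeq transcript rows (x axis) in the VP64-MyoD (red), WT-MyoD (blue) and untreated (grey) libraries, 2 points per group. At NM_001018005 the groups do not overlap, with VP64-MyoD at 10.5% and 10.4% and untreated cells at 8.31% and 8.86%.

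Genes of related pathways were read from 9 lists, counting genes that are not members. ATF4, the transcription factor of the amino acid stress response, drives amino acid transporters and tRNA synthetases such as SLC7A5 and TARS1, the 2 members on its list. Of the 44 other listed genes, 5 rose and 28 fell with VP64-MyoD against untreated cells, and their median stood at -0.29 on the log2 scale; the 5 were 3 without untreated replicate 1 and without either VP64-MyoD library. With WT-MyoD 1 rose and 42 fell, and the median was -1.08. Against WT-MyoD, 36 were higher and 2 lower with VP64-MyoD, beside 28.7% and 28.4% of all genes; without either VP64-MyoD library the 2 were 1. MTHFD2, a mitochondrial folate enzyme, had 187 and 198 CPM in VP64-MyoD cells, 68.1 and 58.8 CPM in WT-MyoD cells, and 177 and 175 CPM in untreated cells. On the log2 scale over untreated cells, MTHFD2 stood at -0.06 (SE 0.06, edgeR adjusted p = 0.45) with VP64-MyoD and at -1.65 (SE 0.06, edgeR adjusted p = 4.8e-12) with WT-MyoD. PSAT1, of serine synthesis, stood at -0.36 (SE 0.07, edgeR adjusted p = 3.7e-04) with VP64-MyoD and -1.75 (SE 0.07, edgeR adjusted p = 9.8e-12) with WT-MyoD.

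Of the 29 other smooth muscle and SRF target genes (SRF being the serum response factor that drives actin genes), 5 rose and 15 fell with VP64-MyoD, and 2 rose and 19 fell with WT-MyoD, against untreated cells. The list holds 6 members, ACTA2, TAGLN, CNN3, TPM1, TES and CSRP2. The 2 genes that rose with WT-MyoD became 4 without either WT-MyoD library. CNN1, the smooth muscle calponin, fell with both forms, to -2.43 (SE 0.12, edgeR adjusted p = 8.6e-11) with VP64-MyoD and -4.0 (SE 0.14, edgeR adjusted p = 1.6e-12) with WT-MyoD on the log2 scale. PDLIM5, a Z-disc and stress fibre protein, stood at 0.17 (SE 0.06, edgeR adjusted p = 0.018) with VP64-MyoD and -0.36 (SE 0.06, edgeR adjusted p = 1.1e-04) with WT-MyoD. Of the 26 other YAP and TGF-beta targets, 6 rose and 14 fell with VP64-MyoD and 6 rose and 15 fell with WT-MyoD. The matrix protein TGFBI stood at 0.97 (SE 0.07, edgeR adjusted p = 1.4e-08) with VP64-MyoD and -0.41 (SE 0.07, edgeR adjusted p = 2.2e-04) with WT-MyoD. Other genes of the list differed from it. CCN1 and CCN2 fell with both forms, at -0.28 and -0.24 with VP64-MyoD and -0.55 and -1.75 with WT-MyoD. ANKRD1 rose with both, at 4.64 and 1.68. PMEPA1, BHLHE40 and POSTN are among the 4 members on that list. These counts stand beside 33.3% higher and 30.3% lower of all genes with VP64-MyoD, and 26.0% higher and 22.6% lower with WT-MyoD.

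For the other lists the non-member counts were as follows. Of 29 genes of the immediate growth factor response, whose members are IER3 and IL11, 17 rose and 6 fell with VP64-MyoD and 20 rose and 6 fell with WT-MyoD. Sterol and fatty acid synthesis, whose member is MSMO1, had 15 rising and 10 falling of 31 with VP64-MyoD, and 11 and 11 with WT-MyoD; without untreated replicate 2 the 11 that fell with WT-MyoD were 7. The lists of ER chaperones, glycolysis and hypoxia, neuronal and sarcomere genes held no member. Of 22 ER chaperone genes, 11 rose and 5 fell with VP64-MyoD and 5 rose and 9 fell with WT-MyoD, the 5 being 3 without untreated replicate 2. Glycolysis and hypoxia genes rose in 23 and fell in 3 of 28 with VP64-MyoD, and rose in 11 and fell in 5 with WT-MyoD; these became 7 risen without untreated replicate 2 and 8 fallen without WT-MyoD replicate 1. Neuronal genes rose in 15 and fell in 2 of 21 with VP64-MyoD, with 1 fallen without untreated replicate 2, and rose in 10 and fell in 3 with WT-MyoD. Of 35 sarcomere genes, 31 rose and 0 fell with VP64-MyoD, with 1 fallen without untreated replicate 2, and 30 rose and 1 fell with WT-MyoD.

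**Figure D5:**
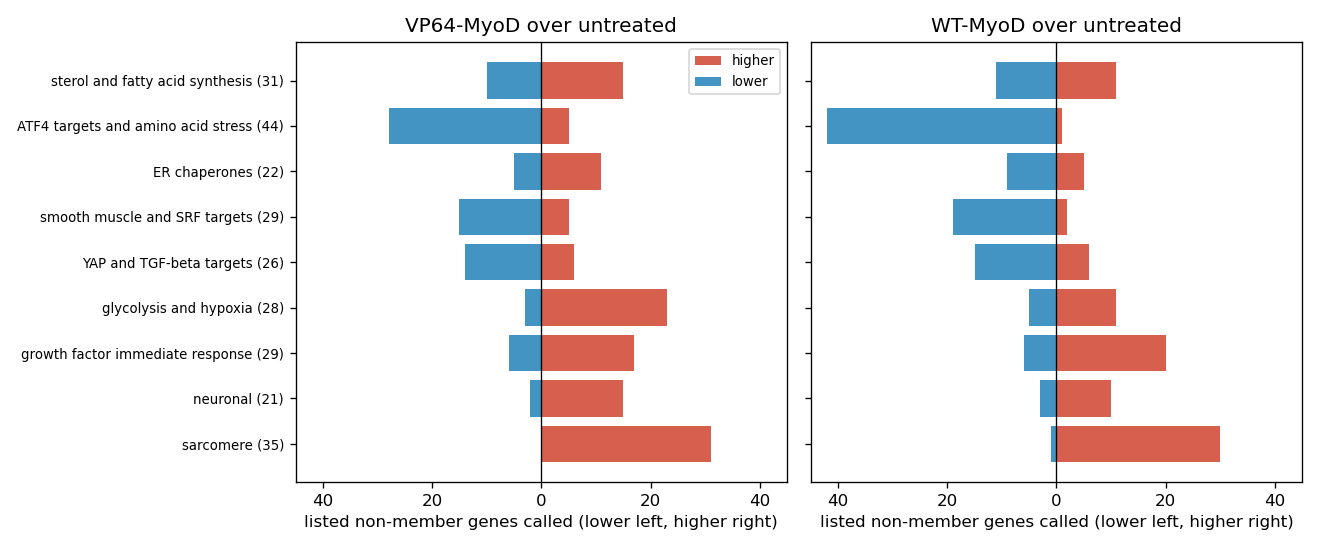
Number of listed genes, members left out, called higher (red, right) or lower (blue, left) than untreated with VP64-MyoD (left panel) and WT-MyoD (right panel), by edgeR at an adjusted p under 0.05. The number of genes tested is in parentheses; 28 of 44 ATF4 genes were lower with VP64-MyoD and 42 of 44 with WT-MyoD.

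Promoters of members were searched for sites of MyoD and of factors tied to the groups above. RefSeq promoter windows (GRCh38.p14, 250 bases before to 50 after the start of each gene) were matched by symbol for 60 of the 87 members, and motifs were searched on both strands. The E-box CANNTG was in 73.3% of the member windows, against 58.9% of 8799 windows of genes with at least 5 CPM under VP64-MyoD and 68.9% of all 27305 windows. Its MyoD-type form CAGCTG, which is also a CANNTG, was in 23.3%, against 17.3% and 17.7%, and CACCTG in 12 of the 60, against 16.3% and 20.6%. The AP-1 motif TGANTCA was in 6 of the 60 windows, or 10.0%, against 4.16% and 7.76%. The ATF4 composite motif TGATGNAA was in 3, or 5.00%, against 1.61% and 3.67%. These 3 were the windows of CALCRL, GOT1 and TARS1, and the window of SLC7A5 held no match to it. The TEAD motif GGAATG was in 11.7%, against 10.8% and 14.05%, and the TATA box TATAAA in 6.67%, against 5.19% and 11.95%. The CArG box, the site of SRF, was in none of the 60 windows, against 1.17% and 1.29%. Its letters are not given here, and sites that differ from the pattern searched, or lie outside the window, would not be counted. The motif figures are counts of letters in one window and are no test of binding.

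The windows of 5 members are shown, since they hold the AP-1, MyoD-type and ATF4 motifs beside genes of the ligand, matrix and metabolic groups described above. Only the matches to these motifs that are named below are in capitals. Matches to the other motifs stay in lower case, such as an E-box in IL11 and an E-box and a TATA box in POSTN. IL11 (chr19:55370414-55370713, minus strand) and POSTN (chr13:37598719-37599018, minus strand) each hold 1 AP-1 motif, which starts 96 and 220 bases before the gene start. HSD11B1 (chr1:209685929-209686228, plus strand) holds CAGCTG 110 bases and CAGGTG, the reverse complement of CACCTG, 122 bases before the start. TARS1 (chr5:33440715-33441014, plus strand) and GOT1 (chr10:99430575-99430874, minus strand) hold the reverse complement of the ATF4 composite motif, which in TARS1 runs into a CAGCTG. All windows are GRCh38.p14 and read 5′ to 3′ on the gene's strand.
IL11: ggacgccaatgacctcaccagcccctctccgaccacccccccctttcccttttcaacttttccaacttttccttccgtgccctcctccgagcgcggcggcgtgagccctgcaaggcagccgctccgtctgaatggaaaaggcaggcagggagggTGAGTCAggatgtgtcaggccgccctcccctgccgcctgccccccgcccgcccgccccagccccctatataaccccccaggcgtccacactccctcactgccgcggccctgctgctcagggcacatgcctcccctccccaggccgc
POSTN: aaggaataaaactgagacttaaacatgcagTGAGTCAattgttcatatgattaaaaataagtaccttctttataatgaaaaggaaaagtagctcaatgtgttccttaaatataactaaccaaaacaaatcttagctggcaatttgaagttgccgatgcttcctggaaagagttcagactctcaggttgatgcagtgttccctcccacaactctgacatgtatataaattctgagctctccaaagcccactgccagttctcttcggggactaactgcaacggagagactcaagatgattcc
HSD11B1: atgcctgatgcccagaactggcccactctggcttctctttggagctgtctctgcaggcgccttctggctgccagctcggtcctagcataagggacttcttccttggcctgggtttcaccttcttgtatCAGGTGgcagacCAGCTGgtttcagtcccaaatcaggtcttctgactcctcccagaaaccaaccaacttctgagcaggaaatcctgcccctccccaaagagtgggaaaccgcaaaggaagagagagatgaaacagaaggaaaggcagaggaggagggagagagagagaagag
TARS1: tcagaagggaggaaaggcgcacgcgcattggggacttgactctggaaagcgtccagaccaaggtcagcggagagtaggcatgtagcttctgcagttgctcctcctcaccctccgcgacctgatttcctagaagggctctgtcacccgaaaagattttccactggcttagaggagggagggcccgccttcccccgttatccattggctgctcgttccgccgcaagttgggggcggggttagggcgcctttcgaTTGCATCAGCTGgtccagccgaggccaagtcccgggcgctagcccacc
GOT1: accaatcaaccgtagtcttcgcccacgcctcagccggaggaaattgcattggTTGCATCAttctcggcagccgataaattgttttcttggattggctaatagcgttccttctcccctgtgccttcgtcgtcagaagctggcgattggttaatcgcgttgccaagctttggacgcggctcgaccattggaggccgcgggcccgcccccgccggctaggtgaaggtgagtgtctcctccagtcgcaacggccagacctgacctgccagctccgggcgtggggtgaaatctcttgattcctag

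Members were spread over the genome, with 3 pairs next to each other in RefSeq's order of the genes in the count table: INHBE and GLI1, TARS1 and ADAMTS12, and MSC and MSC-AS1. Of the 87, 82 are protein-coding. The median gene span was 39.5 kb for members and 33.3 kb for the genes with at least 5 CPM under VP64-MyoD.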

How the data were processed

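Polyadenylated RNA of 6 libraries (3 groups of 2) was sequenced from libraries made with Nextera transposase, so strand is not recorded. The tools named in the submitters' processing notes are CASAVA, Bowtie (0.12.9) and DESeq (1.10.1), with build hg19; aligner settings, counter and annotation are not given in the sources used here. The deposited count table holds raw counts per RefSeq transcript; every value is even, as when a read pair counts as 2. The authors' deposited table gives fold ratios, log2 fold changes and p-values, per the file headers; it entered no test. Of 40710 rows, 39324 were matched to symbols by RefSeq accession (newer assembly), 516 through GENCODE 29 and 869 not at all (0.601% to 0.745% of counts); 1 is the transgene. Rows were summed per gene. No gene coordinates are given for hg19.

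The gene test was edgeR 4.0.16, run in R 4.3.3 (TMM, filterByExpr with a minimum count of 10 and total of 15, two-sided quasi-likelihood test, 1 fit of all libraries, 3 residual degrees of freedom, Benjamini-Hochberg). Each SE was derived by dividing the absolute log2 value by sqrt(F). Comparisons with untreated cells share those libraries. Members, lists and tests were chosen with earlier results of these data known; roles were assigned after members were found. Values in each library are given for the 15 members with the highest VP64-MyoD over WT-MyoD fold change, the 10 most abundant with VP64-MyoD, those on a list or with called transcript usage, and other members, other listed genes and related genes chosen after their values were seen. Alternatives were DESeq2 1.42.0, limma 3.58.1, RLE factors, other filters and rule steps, a replicate block and leaving out each library. The scripts were tested on simulated data. The values of 2 members are not reported here; they stay in all counts and medians.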

Additional observations from a re-analysis of the deposited data

How the results depend on the processing

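The number of genes that met the membership rule was 195 with a fold step of 1.1 and 27 with a step of 1.5, against 87 at 1.2. Leaving out a library in turn gave 91 to 176, the highest without WT-MyoD replicate 1; fewer libraries make the rule easier to meet. TMM-scaled CPM gave 92 genes (59 shared with the members), RLE factors 89 (58 shared), and levels of 1 and 10 CPM 112 and 68. A minimum of 20 read pairs in untreated cells, chosen after seeing the data, gave 85, without KCNQ1 and CLEC19A. Counts of genes called in the 3 comparisons stayed within 1.5 times under RLE factors, no filter, DESeq2, the replicate block and each left-out library. Genes called for transcript usage ranged over left-out libraries from 22 to 103 for VP64-MyoD over untreated cells (53 with all libraries), 5 to 18 for WT-MyoD over untreated cells (16) and 11 to 48 for VP64-MyoD over WT-MyoD (36); the cause was not tested.

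Replicate numbers are shared by the groups, but the labels do not say that they mark a batch. The correlations of same-numbered deviations were -0.067, 0.022 and 0.13, so the numbers were not taken as pairing. With the replicate block, 5065 genes were higher and 4614 lower with VP64-MyoD than untreated, 3948 and 3439 with WT-MyoD than untreated, and 4372 and 4322 with VP64-MyoD than with WT-MyoD; usage calls were 43, 13 and 25 in that order. No member changed sign in any alternative run; KCNQ1 has no WT-MyoD fold without untreated replicate 1, since no count remains. Over all alternatives, members' fold changes moved by more than their SE in 123 cases and by less in 2486; list counts moved by over 1.5 times in 15 cases and by less in 525.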
